A study of Homo sapiens with 18 samples.

Results

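The comparison asked how far the response to starvation in the HAP1 line labelled RB1CC1KO/FIP200KO differed from the response of its parental line. It was measured as the response difference: log2 EBSS minus full medium in the RB1CC1KO-labelled line, minus the same in the parental line. A value above 0 means that the starved-to-fed ratio of a gene was larger in the RB1CC1KO-labelled line. Libraries were chosen by their titles and comprised 12 of the 18 in the series, 3 in each of 4 groups. HAP1 is a near-haploid human line derived from a chronic myeloid leukaemia line. The groups were WT/parental cells in full medium (IMDM with 10% heat-inactivated fetal calf serum, penicillin and streptomycin), WT/parental cells starved for 6 h in EBSS (Earle's balanced salts without amino acids or serum), and RB1CC1KO/FIP200KO cells in the same 2 conditions. The 3 libraries of a group are labelled as independent biological replicates. The other 6 libraries, of a line labelled ATG7KO in the same conditions, entered the estimate of the spread and a second comparison.

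RB1CC1, also called FIP200, is the scaffold of the ULK1 kinase complex, which starts autophagosome formation when amino acids are withdrawn. Withdrawal of amino acids and serum is also known to set off the amino acid response through ATF4, to turn off mTORC1 at the lysosome, and to change the short-lived mRNAs of the immediate early genes, which encode transcription factors such as FOS and JUN. Each genotype was represented by 1 line, so an effect of the knockout and any other difference between the lines cannot be told apart. In bulk RNA, fewer cells that hold a transcript and less of it per cell cannot be told apart either.

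The 12 libraries held 11994110 to 26005942 reads in genes, and the deepest was RB1CC1KO EBSS replicate 2. Mitochondrial transcripts took 3.52 to 4.26% of these reads in fed WT, 2.00 to 2.36% in starved WT, 3.25 to 3.97% in fed RB1CC1KO cells and 1.41 to 2.20% in starved RB1CC1KO cells. Among haematopoietic markers MPO and GATA1 had no read, and PTPRC, CD34 and SPI1 stayed at or below 0.296 CPM (the usual unit of read counts scaled to library size, here also scaled for library composition). Others on this list were expressed, with maxima of 66.6 CPM for GATA2, 54.7 for TAL1, 32.8 for HCLS1 and 14.8 for RUNX1. The summed CPM of this list was 171.5 to 184.2 in fed WT, 136.5 to 143.6 in starved WT, 140.2 to 148.7 in fed and 111.2 to 123.1 in starved RB1CC1KO cells. The sums of the epithelial list were 110.1 to 122.4, 122.8 to 128.6, 80.5 to 89.9 and 92.9 to 102.8 in the same order, with CDH1 at most at 0.198 CPM and GRHL2 without a read. KRT18, KRT8 and ESRP1 of that list reached 78.0, 29.5 and 15.0 CPM. The sums of the fibroblast and mesenchymal list were 969 to 975, 1460 to 1491, 774 to 806 and 1380 to 1447. The part of these markers in the results was not tested.

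RB1CC1 itself was examined first. It was at 94.2, 106 and 115 CPM in fed WT, 225, 231 and 209.8 CPM in starved WT, 147, 171 and 152 CPM in fed RB1CC1KO cells and 251, 280.0 and 259.8 CPM in starved RB1CC1KO cells. All RB1CC1KO-labelled libraries were above the WT libraries of the same condition, with a full-medium difference of 0.58 ± 0.07, adjusted p = 8.3e-08. A count over the whole gene does not show where the gene was edited, so RNA levels give no check of this label. The response difference of RB1CC1 was -0.33 ± 0.10, adjusted p = 0.031, and it did not pass under 9 of 19 alternative settings or after adjustment for GC content. ULK1, the kinase of the complex, had a response difference of 0.18 ± 0.12, adjusted p = 0.41. ATG13 and ATG101, its regulatory subunits, had -0.01 ± 0.08 (adjusted p = 0.96) and 0.17 ± 0.13 (adjusted p = 0.47).

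Of 15179 genes tested, 1238 had a response difference at an adjusted p below 0.05 (8.16%). The response difference was above 0 for 407 of them (called higher, 2.68%) and below 0 for 831 (called lower, 5.47%). Differences of at least 2-fold were found for 44 genes upwards and 117 downwards, and the median over all tested genes was -0.02. The fitted responses of the lines were both upwards for 206 and both downwards for 95 of the genes called higher, and they were both downwards for 440 and both upwards for 182 of those called lower. Opposite signs were fitted for 106 genes called higher, which went down in WT and up in the RB1CC1KO-labelled line, and for 209 genes called lower, which did the reverse. These opposite signs were 26.0% of the genes called higher and 25.2% of those called lower. The same patterns were fitted for 6.36% and 7.44% of all tested genes, respectively. Calling a difference selects genes with unlike responses, so these shares are only a description. In full medium 2606 genes were called between the lines (17.2%), of which 1260 were higher (8.3%) and 1346 lower (8.87%) in the RB1CC1KO-labelled line. The response difference rests on more groups and is measured less precisely, so these counts do not compare the extent of the differences.

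Higher calls made up 32.9% of these 1238, but 46% with a stricter filter on low counts, 43.8% when only the 4 compared groups were modelled, 42.6% with DESeq2 and 44.7% after adjustment for GC content. The total was 788 without WT EBSS replicate 1 and 824 without RB1CC1KO full medium replicate 2. The higher calls numbered 249 without WT full medium replicate 1, 237 without WT EBSS replicate 2, 621 without WT EBSS replicate 3, 687 without RB1CC1KO EBSS replicate 2 and 226 without RB1CC1KO EBSS replicate 3. The lower calls numbered 497 without WT EBSS replicate 1, 510 and 532 without RB1CC1KO full medium replicates 2 and 3, and 536 without RB1CC1KO EBSS replicate 1. The starting-level calls upwards numbered 757 and 835 without WT full medium replicates 1 and 3, and 674 and 782 without RB1CC1KO full medium replicates 2 and 3.

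**Figure D1:**
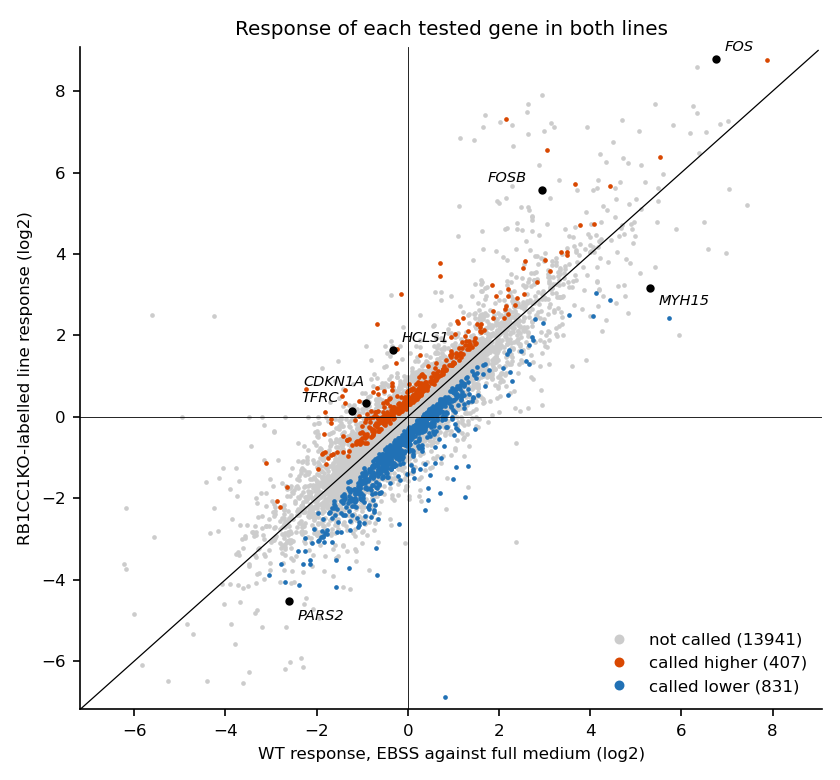
Fitted response of each tested gene to 6 h of EBSS in WT (x axis, log2) and in the RB1CC1KO-labelled line (y axis, log2), with the diagonal of equal response and named genes marked. The 407 genes called higher lie above the diagonal and the 831 called lower lie below it, and 106 and 209 of them have responses of opposite sign.

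The largest differences upwards among genes with enough reads to be named belonged to a pair of immediate early genes of the FOS family, whose proteins pair with JUN proteins to form the transcription factor AP-1. FOSB was at 2.92, 2.23 and 8.43 CPM in fed WT, 27.5, 33.0 and 37.4 CPM in starved WT, 2.12, 1.58 and 0.971 CPM in fed RB1CC1KO cells and 70.4, 72.9 and 80.7 CPM in starved RB1CC1KO cells. All starved RB1CC1KO libraries were above all starved WT libraries, all fed RB1CC1KO libraries were below all fed WT libraries, and the fed WT replicates were spread widely with replicate 3 the highest. The response difference of FOSB was 2.62 ± 0.51, adjusted p = 0.0069, and without WT full medium replicate 3 it was 1.91.

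FOS had the same layout at a higher starved level. It was at 1.46, 1.49 and 2.99 CPM in fed WT, 189, 194 and 241 CPM in starved WT, 1.18, 0.901 and 1.15 CPM in fed RB1CC1KO cells and 486, 472 and 473 CPM in starved RB1CC1KO cells. The starved groups did not overlap, nor did the fed ones, and the third fed WT library was again the highest of those in full medium. The response difference was 2.02 ± 0.33, adjusted p = 4.0e-04. In full medium the lines did not pass the test for FOS (-0.82 ± 0.32, adjusted p = 0.086) or for FOSB (-1.43 ± 0.47, adjusted p = 0.052), but these calls depended on the setting. The full-medium difference was called under 3 of 12 alternatives for FOS and 4 of 12 for FOSB, DESeq2 and the fit without WT full medium replicate 2 among them for both, and without WT full medium replicate 3 it was -0.48 for FOS and -0.71 for FOSB.

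Of the 25 measured immediate early transcription factors, 8 were called higher (32%) and none lower, with a list median of 0.49 against -0.02 for all genes. Counts in this and the later lists are to be read against 2.68% of all tested genes called higher and 5.47% called lower. The lists were chosen with earlier results of these data known. IER2, a nuclear protein that is induced within minutes by serum, was at 241, 235 and 285 CPM in starved WT and 447, 371 and 421 CPM in starved RB1CC1KO cells, from 25.0 to 31.6 CPM in the fed libraries. KLF6, a zinc finger factor, was at 404, 429.5 and 429 CPM in starved WT and 557, 568 and 594 CPM in starved RB1CC1KO cells, from 53.8 to 62.1 CPM when fed. Neither gene's starved groups overlapped, while the fed groups did. The response differences were 0.83 ± 0.13 (adjusted p = 1.2e-04) for IER2 and 0.49 ± 0.08 (adjusted p = 2.1e-04) for KLF6.

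ATF3, a stress-induced factor that pairs with AP-1 and ATF proteins, had a response difference of 0.65 ± 0.13, adjusted p = 6.8e-04, with 211 to 228 CPM in starved WT and 369 to 385 CPM in starved RB1CC1KO cells. JUN (0.94), EGR1 (0.89) and JUNB (0.55), named after their values were seen, complete the called members. EGR1, a zinc finger factor, differed in where the gap lay: its mean was 1795 CPM in starved WT and 1961 CPM in starved RB1CC1KO cells, against 7.77 and 4.47 CPM in full medium. Of the 17 members not called, 15 had values above 0, and JUND (-0.18) and FOSL2 (-0.11) had values below it. The median GC content of the list was 56.7%, against 48.4% for all tested genes. After adjustment for GC content 9 members were called higher and 1 lower, and DESeq2 called 9 higher.

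**Figure D2:**
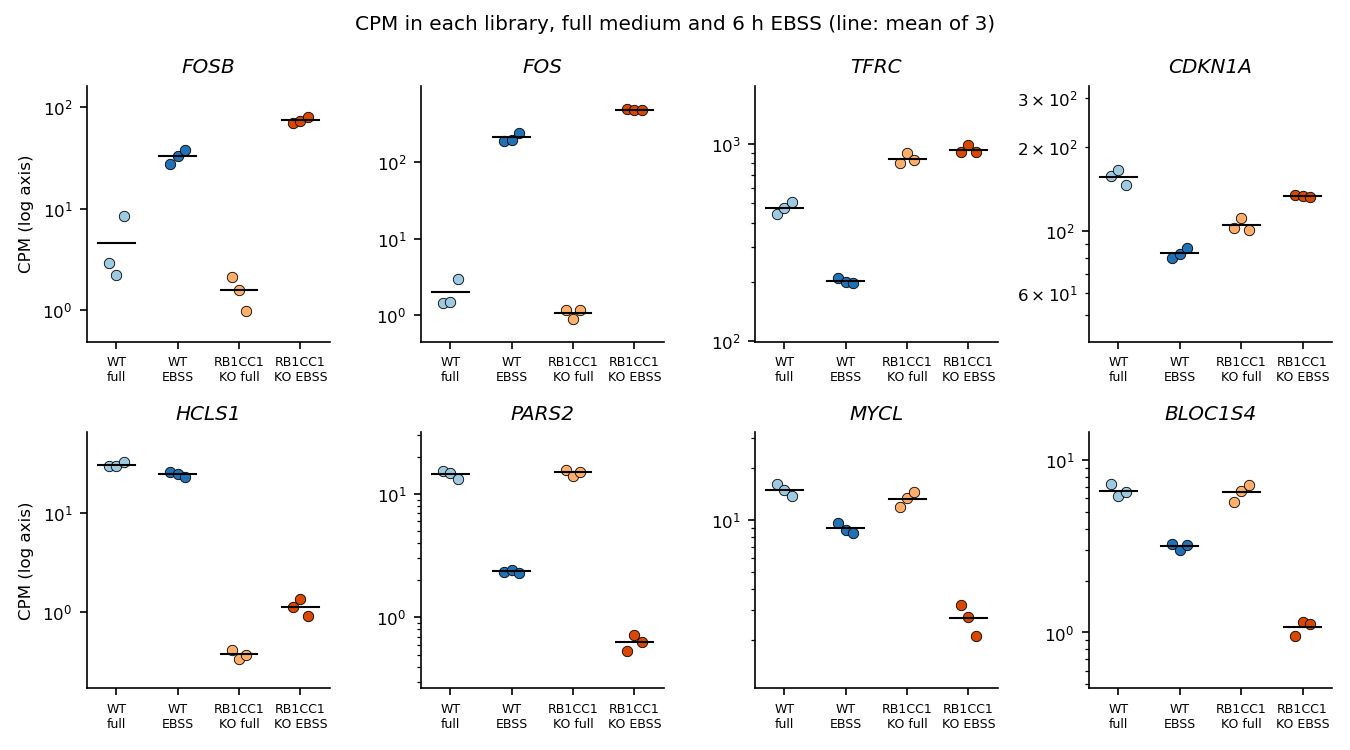
CPM on a log axis in each of the 12 libraries for 8 genes, with a line at the mean of each group of 3. In FOSB, FOS, PARS2, MYCL and BLOC1S4 the starved groups stand apart, TFRC and CDKN1A are lower in starved than in fed WT but not in the RB1CC1KO-labelled line, and HCLS1 starts far lower in the RB1CC1KO-labelled line.

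Promoter sequences of 4 genes are shown because FOS and FOSB moved together while HCLS1 and PARS2 had large differences in either direction. They are RefSeq entries on GRCh38.p14 from 250 bases before to 50 after the start site, written 5′ to 3′ on the gene's strand. FOS lies at chr14:75278578-75278877 (plus strand), FOSB at chr19:45467746-45468045 (plus), HCLS1 at chr3:121660854-121661153 (minus) and PARS2 at chr1:54764474-54764773 (minus). Capitals mark matches on either strand to the cyclic AMP response element TGACGTCA, the AP-1 site TGANTCA, the ATF4/CEBP site TGATGNAA, the ETS site CCGGAA or the CArG box.
FOS: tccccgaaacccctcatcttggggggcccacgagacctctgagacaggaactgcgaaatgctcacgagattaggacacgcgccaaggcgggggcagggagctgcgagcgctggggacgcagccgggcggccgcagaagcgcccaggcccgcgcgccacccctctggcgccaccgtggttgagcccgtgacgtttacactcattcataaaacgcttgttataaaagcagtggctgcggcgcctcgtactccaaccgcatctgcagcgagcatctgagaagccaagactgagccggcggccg
FOSB: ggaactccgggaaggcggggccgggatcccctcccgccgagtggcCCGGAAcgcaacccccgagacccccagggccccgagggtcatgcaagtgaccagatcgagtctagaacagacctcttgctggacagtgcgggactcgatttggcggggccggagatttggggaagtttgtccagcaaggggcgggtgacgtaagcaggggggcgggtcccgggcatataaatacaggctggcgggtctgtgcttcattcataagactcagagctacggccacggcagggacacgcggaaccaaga
HCLS1: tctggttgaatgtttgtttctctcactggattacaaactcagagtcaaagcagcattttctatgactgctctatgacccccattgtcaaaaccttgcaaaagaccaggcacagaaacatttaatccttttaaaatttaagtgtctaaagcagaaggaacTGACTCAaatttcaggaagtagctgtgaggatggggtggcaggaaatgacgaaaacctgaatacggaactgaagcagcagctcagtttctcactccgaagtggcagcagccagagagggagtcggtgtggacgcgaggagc
PARS2: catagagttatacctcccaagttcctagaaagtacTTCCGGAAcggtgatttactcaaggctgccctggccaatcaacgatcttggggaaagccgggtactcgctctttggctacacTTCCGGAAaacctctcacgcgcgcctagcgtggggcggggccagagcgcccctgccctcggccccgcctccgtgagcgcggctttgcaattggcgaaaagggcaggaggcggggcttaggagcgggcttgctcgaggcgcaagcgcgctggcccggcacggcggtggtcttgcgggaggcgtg

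FOS and KLF6 had no match to the 5 motifs in this window. FOSB had 1 ETS match, at position -205 from the start site, and IER2 had 1 at -26. HCLS1 had 1 AP-1 match at -91. PARS2 had 4 ETS matches, which overlap in pairs on opposite strands at -215 and -213 and at -133 and -131. Of 11025 promoters of tested genes, 29% held an ETS match, 4.25% an AP-1 match, 3.28% a cyclic AMP response element, 1.61% an ATF4/CEBP match and 1.04% a CArG box. In all 27305 promoters the shares were 17.6%, 7.76%, 1.98%, 3.67% and 1.29%. These are letter matches within this window. Variants of the motifs and sites outside the window were not searched for, and binding was not measured.

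The list of ERK feedback phosphatases and Sprouty genes also held NAB1, NAB2, ETV4 and ETV5. Of its 19 measured genes 2 were called higher and 3 lower, with a median of 0.01. DUSP10, a phosphatase of stress-activated kinases, was at 5.25, 4.82 and 5.57 CPM in starved WT and 18.5, 18 and 17.0 CPM in starved RB1CC1KO cells (1.21 ± 0.25, adjusted p = 0.0014). NAB2, a corepressor of the EGR proteins, went the other way and was at 135, 109.8 and 141 CPM in starved WT and 73.5, 53.0 and 61.5 CPM in starved RB1CC1KO cells (-0.75 ± 0.15, adjusted p = 0.0013). DUSP16 (0.42 ± 0.09, adjusted p = 0.0034) was called higher and DUSP2 (-0.99 ± 0.28, adjusted p = 0.023) lower. In full medium DUSP10 started higher (0.57 ± 0.20, adjusted p = 0.042) and DUSP16 lower (-0.20 ± 0.07, adjusted p = 0.045) in the RB1CC1KO-labelled line. The fifth called member, SPRY1 (-0.80), is named because it completes the count. The 3 lower calls became 1 without WT full medium replicate 3 or RB1CC1KO EBSS replicate 3.

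Among 15 ERK-responsive secreted and surface genes, 2 were called higher and none lower (median 0.16). ARC, an immediate early gene best known from neurons, was one of them and was at 6.17, 6.01 and 8.52 CPM in starved WT and 15.3, 15.9 and 17.7 CPM in starved RB1CC1KO cells, from 1.61 to 2.28 CPM in the fed libraries (1.39 ± 0.28, adjusted p = 0.0011). Of 18 YAP and SRF targets, 2 were called higher and 3 lower. AJUBA, a LIM protein of the Hippo pathway, was at 68.0, 67.5 and 70.2 CPM in starved WT and 38.7, 36.1 and 39.4 CPM in starved RB1CC1KO cells (-0.60 ± 0.09, adjusted p = 6.7e-05). F3, which encodes tissue factor (-0.60 ± 0.16, adjusted p = 0.012), and the actin-binding gene TAGLN (-0.90 ± 0.27, adjusted p = 0.032) were also called lower, and these calls were lost under 3 and 7 of 19 alternatives. The actin crosslinker FLNA was called higher (0.40 ± 0.11, adjusted p = 0.019), and ACTB (0.28) completes the count. In full medium AJUBA (-0.26 ± 0.07, adjusted p = 0.0059) and FLNA (-0.22 ± 0.08, adjusted p = 0.043) started lower in the RB1CC1KO-labelled line. TAGLN started higher there (0.63 ± 0.23, adjusted p = 0.047). The 2 higher calls became 0 without WT EBSS replicate 2 and 1 without WT full medium replicate 1 or 2, WT EBSS replicate 3, RB1CC1KO full medium replicate 3, or RB1CC1KO EBSS replicate 2 or 3. The 3 lower calls became 1 without WT EBSS replicate 1.

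BTG2 and BTG1 encode related antiproliferative proteins that recruit the mRNA deadenylation machinery, and they differed in direction. BTG2 was at 51.2, 50.2 and 54.6 CPM in fed WT, 45.5, 48.4 and 50.5 CPM in starved WT, 51.8, 56.1 and 59.7 CPM in fed RB1CC1KO cells and 26.6, 27.1 and 22.9 CPM in starved RB1CC1KO cells. The starved RB1CC1KO group stood below the other 3 groups, and the response difference was -1.01 ± 0.11, adjusted p = 2.1e-07. BTG1 had 0.40 ± 0.10, adjusted p = 0.0084. No other of the 13 mRNA decay regulators passed, among them ZFP36 (0.53 ± 0.17, adjusted p = 0.053), which was called under 10 of 19 alternatives. ZFP36 started lower in the RB1CC1KO-labelled line (-0.55 ± 0.15, adjusted p = 0.0067). The list had 2 higher calls without WT full medium replicate 1, WT EBSS replicate 3, RB1CC1KO full medium replicate 3 or RB1CC1KO EBSS replicate 2, and 2 lower calls without WT full medium replicate 2.

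TFRC, the transferrin receptor that brings iron into the cell, had the smallest adjusted p of the 24 genes named for the size of their difference. It was at 440.5, 477 and 507 CPM in fed WT, 209.9, 199.5 and 198 CPM in starved WT, 805, 901 and 831 CPM in fed RB1CC1KO cells and 918, 990.2 and 913 CPM in starved RB1CC1KO cells. The 4 groups did not overlap, and the starved group was the lower one in WT and the higher one in the RB1CC1KO-labelled line. The response difference was 1.38 ± 0.09, adjusted p = 2.7e-13, and the starting level was already higher (0.83 ± 0.06, adjusted p = 4.1e-13). The difference lay between 1.35 and 1.46 under the 19 alternatives.

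CDKN1A, the cyclin-dependent kinase inhibitor p21, had the same pattern of signs from a lower start. It was at 157, 166 and 146 CPM in fed WT, 80.0, 83.0 and 87.2 CPM in starved WT, 103, 111 and 101 CPM in fed RB1CC1KO cells and 135, 133 and 133 CPM in starved RB1CC1KO cells. The 4 groups did not overlap. The response difference was 1.26 ± 0.11, adjusted p = 9.7e-09, with a full-medium difference of -0.58 ± 0.08, adjusted p = 1.1e-06. It was the only called gene among 13 CDK inhibitors and D cyclins, although 1 member was called lower without WT EBSS replicate 3 or RB1CC1KO full medium replicate 3.

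PYCR3, an enzyme of proline synthesis, was at 25.1, 18.7 and 23.5 CPM in fed WT, 5.96, 5.76 and 6.98 CPM in starved WT, 18.8, 14.1 and 19.3 CPM in fed RB1CC1KO cells and 14.6, 11.9 and 12.2 CPM in starved RB1CC1KO cells (1.40 ± 0.19, adjusted p = 5.9e-06). The fed groups overlapped and the starved ones did not. CSPG5, a neural proteoglycan, was at 5.96, 5.07 and 4.61 CPM in starved WT and 9.54, 12 and 9.49 CPM in starved RB1CC1KO cells (1.25 ± 0.25, adjusted p = 0.0012). PYGM, the muscle form of glycogen phosphorylase, was at 17.6, 18.6 and 20.4 CPM in starved WT and 50.9, 59.4 and 56.5 CPM in starved RB1CC1KO cells, from 0.694 to 1.24 CPM in the fed libraries (1.22 ± 0.33, adjusted p = 0.017). The starved groups of PYGM did not overlap, but its call was lost without WT full medium replicate 1 or 3 or RB1CC1KO full medium replicate 3.

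For HCLS1 and STXBP2 the starting levels were very unequal. HCLS1, an actin-binding protein of blood cells, was at 30.3, 29.9 and 32.8 CPM in fed WT, 26.1, 24.8 and 23.4 CPM in starved WT, 0.413, 0.338 and 0.364 CPM in fed RB1CC1KO cells and 1.13, 1.35 and 0.914 CPM in starved RB1CC1KO cells. Every WT library was far above every RB1CC1KO library, so the response difference of 1.95 ± 0.30 (adjusted p = 4.1e-05) describes a small absolute change at a low level. The full-medium difference was -6.35 ± 0.16, adjusted p = 1.2e-26. STXBP2, a regulator of secretory granule fusion, was at 5.34, 5.56 and 7.24 CPM in fed WT, 5.82, 3.32 and 6.02 CPM in starved WT, 0.295, 0.619 and 0.607 CPM in fed RB1CC1KO cells and 1.01, 1.57 and 1.20 CPM in starved RB1CC1KO cells. Its full-medium difference was -3.54 ± 0.29, adjusted p = 9.5e-12. Its response difference was 1.58 ± 0.42, adjusted p = 0.014, and this call was lost without RB1CC1KO full medium replicate 1 or RB1CC1KO EBSS replicate 2.

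The last of the 12 largest upward differences were ISG20, an interferon-induced exonuclease (1.29 ± 0.37, adjusted p = 0.024), and LRRN4CL, a leucine-rich repeat protein (1.26 ± 0.37, adjusted p = 0.027). Both had low levels, with 0.668 to 1.89 and 0.425 to 1.24 CPM in the fed libraries. The ISG20 call was lost without WT full medium replicate 1 or 3, RB1CC1KO full medium replicate 3 or RB1CC1KO EBSS replicate 1. The LRRN4CL call was lost without WT full medium replicate 1 or 2, WT EBSS replicate 1, or RB1CC1KO full medium replicate 1 or 3. Of these 12 genes, 4 started lower in the RB1CC1KO-labelled line (HCLS1, STXBP2, PYCR3 and CDKN1A), 1 started higher (TFRC) and 7 did not pass in full medium. The full-medium libraries enter both differences with opposite sign, so choosing large upward response differences favours lower starts. This tally is only a description. The full-medium call of PYCR3 (-0.36 ± 0.12, adjusted p = 0.034) was lost without WT full medium replicate 1 or 3 or RB1CC1KO full medium replicate 2.

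PARS2, the mitochondrial prolyl-tRNA synthetase, had one of the largest differences downwards. It was at 15.3, 14.8 and 13.1 CPM in fed WT, 2.34, 2.44 and 2.31 CPM in starved WT, 15.7, 14.0 and 15.1 CPM in fed RB1CC1KO cells and 0.534, 0.720 and 0.633 CPM in starved RB1CC1KO cells. The fed groups overlapped (0.05 ± 0.12, adjusted p = 0.84) and the starved groups did not. The response difference was -1.92 ± 0.28, adjusted p = 1.8e-05.

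MED7, a subunit of the Mediator complex, had the same form and was at 7.89, 7.94 and 9.69 CPM in fed WT, 1.92, 1.38 and 1.54 CPM in starved WT, 8.49, 9.51 and 9.22 CPM in fed RB1CC1KO cells and 0.356, 0.508 and 0.703 CPM in starved RB1CC1KO cells (-1.73 ± 0.34, adjusted p = 8.3e-04). MYCL, a MYC family transcription factor, was at 9.65, 8.82 and 8.46 CPM in starved WT and 3.20, 2.75 and 2.11 CPM in starved RB1CC1KO cells, from 12 to 16.2 CPM in the fed libraries (-1.55 ± 0.19, adjusted p = 1.3e-06). In both genes the starting levels did not pass the test, and the starved groups stood apart.

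BLOC1S4 and BLOC1S3 encode subunits of BLOC-1, a complex that helps to form lysosome-related organelles, and both were among the 12 largest downward differences. BLOC1S4 was at 3.26, 3.00 and 3.20 CPM in starved WT and 0.949, 1.14 and 1.13 CPM in starved RB1CC1KO cells, from 5.72 to 7.24 CPM in the fed libraries (-1.52 ± 0.26, adjusted p = 1.6e-04). BLOC1S3 was at 10.3, 11 and 11 CPM in starved WT and 3.50, 2.16 and 1.83 CPM in starved RB1CC1KO cells (-1.66 ± 0.22, adjusted p = 7.9e-06). It also started lower in the RB1CC1KO-labelled line (-0.45 ± 0.13, adjusted p = 0.016), a call that was lost without WT full medium replicate 1, and it overlaps MARK4 on the same strand, which was not called. The neural transcription factor gene OLIG2 (-1.61 ± 0.26, adjusted p = 5.9e-05), the homeobox gene HOXC8 (-1.51 ± 0.24, adjusted p = 7.1e-05) and the zinc finger gene ZNF345 (-1.54 ± 0.35, adjusted p = 0.0038) were likewise lower in every starved RB1CC1KO library than in any starved WT library. HOXC8 overlaps HOXC6 on the same strand, and reads of that pair may not be separable. FOSB, WNK4 and ZNF345 overlap genes on the opposite strand (ERCC1, COA3 and ZNF790), none of which was called.

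The other 4 of the 12, MYH15, WNK4, LRRC66 and OXTR, started higher in the RB1CC1KO-labelled line. The shared full-medium libraries likewise favour higher starts among the largest downward differences, so this too is only a description. MYH15, a myosin heavy chain, was at 0.292, 0.248 and 0.551 CPM in fed WT, 14.8, 15.7 and 11.5 CPM in starved WT, 2.36, 1.46 and 2.06 CPM in fed RB1CC1KO cells and 16.4, 18 and 18.4 CPM in starved RB1CC1KO cells. Its response difference was -2.14 ± 0.37, adjusted p = 2.2e-04, with a full-medium difference of 2.48 ± 0.34, adjusted p = 9.0e-07. Fed WT was the lowest group, and the starved RB1CC1KO libraries were the highest. WNK4, a kinase that controls ion transport, had -1.58 ± 0.38 (adjusted p = 0.0070) and a full-medium difference of 1.78 ± 0.34, adjusted p = 1.7e-04. LRRC66 had -1.58 ± 0.42 (adjusted p = 0.016), a call that was lost without WT full medium replicate 1 or RB1CC1KO full medium replicate 1. OXTR, the oxytocin receptor, was at 1.53, 1.54 and 1.5 CPM in fed WT, 3.33, 1.88 and 2.82 CPM in starved WT, 4.19, 3.83 and 4.07 CPM in fed RB1CC1KO cells and 3.50, 1.69 and 2.25 CPM in starved RB1CC1KO cells (-1.52 ± 0.36, adjusted p = 0.0052). Its fed groups stood apart and its starved groups overlapped.

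The exon number of a gene, taken from its transcript with the most exons, moved with the response difference. This property was examined after the values were seen and is given as a description. Of 212 protein-coding genes with 1 exon, 22.2% were called lower and 0.943% higher. The share called lower was 16.8% of 429 genes with 2 exons, 9.38% of 2367 with 3 to 5, 5.84% of 3970 with 6 to 10 and 3.23% of 5856 with over 10, against 5.94% of all 12834 protein-coding genes. The share called higher was 2.56%, 2.37%, 2.02% and 4.17% in those classes. BLOC1S4 has 1 exon, PARS2, OLIG2 and HOXC8 have 2, and 7 of the 12 largest downward differences belonged to genes with 3 or fewer, compared with 2 of the 12 largest upward ones. The share of all genes at this cut was not computed, and both sets are extremes of the values described above. These counts therefore add no support to the trend.

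Each class was also measured in each library, by the median over its genes of log2 CPM relative to each gene's mean over the 18 libraries. For the 1-exon genes this median was 0.34, 0.34 and 0.29 in fed WT, -0.15, -0.13 and -0.09 in starved WT, 0.24, 0.18 and 0.22 in fed RB1CC1KO cells and -0.48, -0.54 and -0.44 in starved RB1CC1KO cells. The 4 groups did not overlap, and the RB1CC1KO libraries were the lower ones in both conditions. In the ATG7KO line the 1-exon median was 0.24 to 0.46 in full medium and -0.22 to -0.17 in EBSS. For genes with over 10 exons it was -0.08 to -0.04 in fed WT, 0.06 to 0.07 in starved WT, -0.07 to -0.04 in fed and 0.09 to 0.12 in starved RB1CC1KO cells. The difference in median response difference between genes with 1 exon and genes with over 10 was -0.29 (log2), and it lay between -0.32 and -0.24 when single libraries were left out.

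Zinc finger genes with a ZNF symbol were called lower in 16.3% of 411 cases and higher in 1.7%, and 6 of 26 HOX cluster genes were called lower and none higher. Among genes at a mean log2 CPM of 3 to 5, 31.3% of those with 1 or 2 exons and 4.27% of those with over 10 were called lower. At a mean under 3, where 336 genes with 1 or 2 exons lay, these shares were 7.74% and 1.06%. At a mean over 5 they were 29.3% and 3.54%. Among genes with a GC content under 42% these shares were 25.6% and 5.86%, and at over 54% they were 14.9% and 1.09%.

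**Figure D3:**
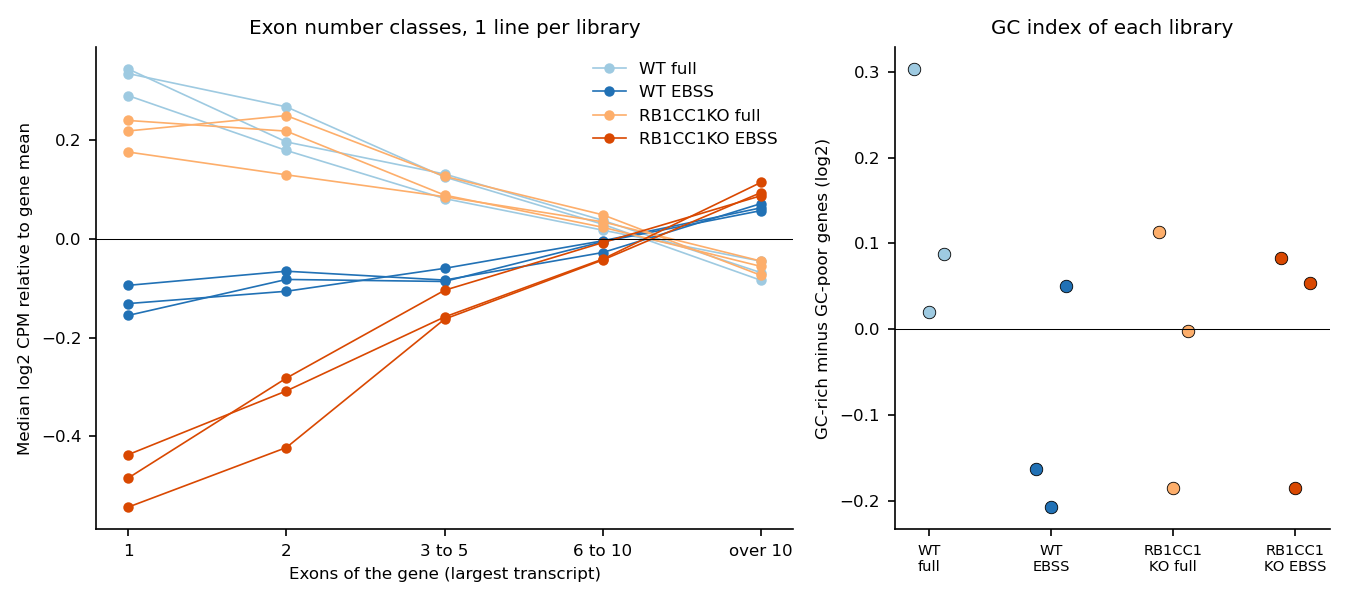
Left: median log2 CPM relative to the gene mean for 5 classes of exon number (x axis), with 1 line for each of the 12 libraries. Right: for each library, the median over genes with a GC content over 54% minus that over genes under 42% (log2). The 1-exon medians of the 4 groups do not overlap, whereas the GC values of the groups do.

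GC content moved with the calls too. Genes called higher had a median GC content of 57.4% and genes called lower 44.6%. The difference in level between GC-rich and GC-poor genes varied among replicates of a group, from 0.02 to 0.30 (log2) in fed WT, -0.21 to 0.05 in starved WT, -0.18 to 0.11 in fed and -0.18 to 0.08 in starved RB1CC1KO cells, so that the groups overlapped. The difference in median response difference between genes with a GC content over 54% and genes under 42% was 0.25 (log2). It lay between 0.17 and 0.34 when single libraries were left out. A model with each library's GC trend removed called 1587 genes, 709 higher and 878 lower, and 1024 genes were called in the same direction in both models. In that model 27.8% of the 1-exon genes were called lower and 0.943% higher, and 14.8% of the ZNF genes were called lower. All 24 genes named for the size of their difference were called in it.

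The ULK1 complex, the autophagy machinery and the autophagy receptors held 1, 1 and 2 called genes of 4, 33 and 17 measured, shares to be read against the 8.16% of all genes. Of 33 measured genes of the autophagy machinery 1 was called higher and none lower (median -0.09), with 4 at an unadjusted p under 0.05 and 1 higher and none lower by DESeq2. That gene, ATG2A, a lipid transfer protein of the growing autophagosome (0.47 ± 0.15, adjusted p = 0.044), was lost under 9 of 19 alternatives. PIK3R4 of the VPS34 lipid kinase complex (-0.28 ± 0.10, adjusted p = 0.066), NRBF2 (-0.39 ± 0.14, adjusted p = 0.075) and WIPI1 (-0.67 ± 0.25, adjusted p = 0.096) did not pass. Of 17 autophagy receptors, 2 were called lower. CALCOCO2 was at 137, 139.7 and 126 CPM in starved WT and 100.4, 107 and 109.8 CPM in starved RB1CC1KO cells, from 44.1 to 48.8 CPM in the fed libraries (-0.30 ± 0.09, adjusted p = 0.037). It and OPTN (-0.37 ± 0.12, adjusted p = 0.040), both receptors for damaged mitochondria and bacteria, were lost under 12 and 13 of 19 alternatives. Those 3 genes did not pass after adjustment for GC content either, and 1 receptor was then called higher and 2 lower, among them CALCOCO1.

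Lysosome genes and TFEB targets were called lower in 6 of 45 cases (13.3%) and higher in none, with a median of -0.06. RRAGA, a GTPase that brings mTORC1 to the lysosome and a 1-exon gene, was at 37.2, 33.9 and 35.7 CPM in starved WT and 26.0, 23.8 and 23.2 CPM in starved RB1CC1KO cells, from 42.4 to 46.5 CPM in the fed libraries (-0.57 ± 0.11, adjusted p = 6.6e-04). Its relative RRAGD was at 89.2, 81.5 and 76.4 CPM in starved WT and 63.0, 66.8 and 68.4 CPM in starved RB1CC1KO cells (-0.44 ± 0.10, adjusted p = 0.0039). The proton pump subunit gene ATP6V1C1 was at 145, 136 and 127 CPM in starved WT and 103, 107 and 93.0 CPM in starved RB1CC1KO cells (-0.54 ± 0.10, adjusted p = 2.5e-04). In all of these the starved groups stood apart and the fed ones overlapped. TPP1 (-0.40) and NEU1 (-0.37), named after their values were seen, were also called lower. The count of 6 was 7 after adjustment for GC content.

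The ATF4 programme, the main transcriptional response to amino acid shortage, had 6 of 31 measured members called higher and 1 lower, with a median of 0.03. SESN2, a leucine sensor that restrains mTORC1, was at 273, 277 and 313 CPM in starved WT and 437, 395 and 443 CPM in starved RB1CC1KO cells, from 24.2 to 31.2 CPM in the fed libraries (0.69 ± 0.11, adjusted p = 5.3e-05). DDIT4, another inhibitor of mTORC1, was at 338, 317 and 361 CPM in starved WT and 553, 443 and 466 CPM in starved RB1CC1KO cells (0.84 ± 0.15, adjusted p = 3.2e-04). STC2, a secreted glycoprotein, had 0.54 ± 0.09, adjusted p = 5.5e-05, and HERPUD1, a protein of the endoplasmic reticulum, had 0.48 ± 0.09, adjusted p = 2.7e-04. In all 4 genes the starved groups did not overlap, and the starting levels did not pass the test. HERPUD1 was also the only called gene of 24 on the list of the unfolded protein response.

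The amino acid transporter genes SLC7A5 (0.51) and SLC3A2 (0.33) and the lipoprotein receptor gene VLDLR (-0.38) complete the called members. The 1 lower call, of VLDLR, became 0 without WT full medium replicate 2 or 3, WT EBSS replicate 1, RB1CC1KO full medium replicate 3 or RB1CC1KO EBSS replicate 3, and 2 without WT EBSS replicate 3 or RB1CC1KO EBSS replicate 2. Of 11 enzymes of serine and one-carbon metabolism none was called by edgeR, with 2 at an unadjusted p under 0.05, 1 called higher by DESeq2 and 2 after adjustment for GC content.

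Of 21 cytosolic aminoacyl-tRNA synthetases, which load amino acids onto tRNAs, 2 were called higher and 1 lower. MARS1 was at 598, 564 and 579 CPM in starved WT and 735, 719.5 and 711 CPM in starved RB1CC1KO cells (0.39 ± 0.08, adjusted p = 9.1e-04). SARS1 was at 420.1, 427 and 406 CPM in starved WT and 326, 338 and 314 CPM in starved RB1CC1KO cells, from 185 to 191 CPM in the fed libraries (-0.37 ± 0.08, adjusted p = 0.0017), so that the synthetases for methionine and serine went opposite ways. CARS1 had 0.33 ± 0.09, adjusted p = 0.018. The 2 higher calls became 5 with DESeq2, 4 after adjustment for GC content, 1 without WT full medium replicate 1, and 4 without RB1CC1KO full medium replicate 1 or RB1CC1KO EBSS replicate 2.

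Among 20 mitochondrial synthetases (median -0.05), PARS2 was joined by MARS2, a 1-exon gene whose product charges methionine tRNA in mitochondria. MARS2 was at 15.3, 14.1 and 13.6 CPM in starved WT and 10.4, 8.13 and 10.1 CPM in starved RB1CC1KO cells, from 41.7 to 52.5 CPM in the fed libraries (-0.82 ± 0.14, adjusted p = 1.0e-04). EARS2 was called higher (0.30 ± 0.09, adjusted p = 0.039), and this call was lost under 7 of 19 alternatives.

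Glycolysis and hypoxia genes were called higher in 8 of 28 cases (28.6%) and lower in none, with a median of 0.22 and a median GC content of 53.0%. VEGFA, the vascular growth factor, was at 318, 349 and 370.5 CPM in starved WT and 416, 392 and 399 CPM in starved RB1CC1KO cells (0.46 ± 0.09, adjusted p = 0.0012). Its level in full medium was lower in the RB1CC1KO-labelled line (-0.24 ± 0.07, adjusted p = 0.015). SLC2A1, the glucose transporter GLUT1, was at 72.6, 67.0 and 83.9 CPM in starved WT and 128, 124 and 132 CPM in starved RB1CC1KO cells, with a response difference of 0.50 ± 0.10, adjusted p = 8.0e-04, and it also started higher in the RB1CC1KO-labelled line (0.28 ± 0.07, adjusted p = 0.0040). PFKFB3, which makes an activator of phosphofructokinase (0.48 ± 0.11, adjusted p = 0.0029), and the peptide hormone gene ADM (0.74 ± 0.17, adjusted p = 0.0051) were called as well. ADM started lower in the RB1CC1KO-labelled line (-0.42 ± 0.13, adjusted p = 0.018). PFKFB4 (0.87), KDM3A (0.30), EGLN3 (0.58) and ANKRD37 (1.03) complete the count. It was 9 after adjustment for GC content and ranged from 6 to 10 with single libraries left out. Across the other settings it ranged from 5 to 9.

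Of 26 sterol genes 3 were called higher and 1 lower. SREBF2, at 253, 252 and 289 CPM in starved WT and 411, 385 and 429.6 CPM in starved RB1CC1KO cells (0.48 ± 0.09, adjusted p = 3.0e-04), and SREBF1 (0.64 ± 0.16, adjusted p = 0.014), the transcription factors of the sterol response, were called higher. INSIG2, which helps to hold those factors in the endoplasmic reticulum, started higher in the RB1CC1KO-labelled line (0.42 ± 0.13, adjusted p = 0.016). Its response difference was called lower (-0.55 ± 0.18, adjusted p = 0.047), and this call was lost under 12 of 19 alternatives and after adjustment for GC content. The higher count was 6 after that adjustment, 5 with DESeq2, 5 without WT full medium replicate 2 or 3 or WT EBSS replicate 3, and 6 without RB1CC1KO EBSS replicate 2.

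Of 25 genes of G1/S and DNA replication 6 were called higher and none lower, with a median of 0.17. MCM2, a subunit of the replicative helicase, was at 549, 529 and 592 CPM in starved WT and 776, 723 and 788 CPM in starved RB1CC1KO cells, from 415 to 482 CPM in the fed libraries (0.41 ± 0.09, adjusted p = 0.0024). UNG, a uracil-removing repair enzyme, had 0.40 ± 0.10, adjusted p = 0.0066. The helicase subunit gene MCM7 (0.30 ± 0.08, adjusted p = 0.020) and ORC1, of the origin recognition complex (0.33 ± 0.09, adjusted p = 0.023), were called higher, and MCM5 (0.33) and MCM3 (0.25) complete the count. It was 2 without WT full medium replicate 1 or WT EBSS replicate 2, and 10 after adjustment for GC content.

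Of 30 G2/M and mitosis genes 5 were called lower and none higher, with a median of -0.15 and 2 values above 0. CENPA, the centromeric histone, was at 52.1, 52.1 and 54.5 CPM in starved WT and 32.1, 33.0 and 31.9 CPM in starved RB1CC1KO cells, from 30.5 to 34.8 CPM in the fed libraries (-0.69 ± 0.11, adjusted p = 4.7e-05). The starved WT group thus stood above the other 3 groups. CCNB1, the mitotic cyclin B1, was at 305, 291 and 286 CPM in starved WT and 234, 217 and 205 CPM in starved RB1CC1KO cells (-0.46 ± 0.08, adjusted p = 3.1e-04). ECT2 (-0.34 ± 0.09, adjusted p = 0.014) and KIF23 (-0.31 ± 0.09, adjusted p = 0.019), both needed for cytokinesis, were called lower, and TPX2 (-0.28) completes the count. The count was again 5 after adjustment for GC content. It was 2 without WT full medium replicate 1, WT EBSS replicate 1, RB1CC1KO full medium replicate 2 or 3, or RB1CC1KO EBSS replicate 1, and 3 without WT full medium replicate 3 or WT EBSS replicate 2. Cell cycle phase was not measured.

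Of 34 ribosome biogenesis genes 3 were called higher and none lower (median 0.05), and 10 were called higher after adjustment for GC content. MYBBP1A, a nucleolar protein, was at 133, 119 and 149 CPM in starved WT and 172, 157 and 185 CPM in starved RB1CC1KO cells (0.53 ± 0.10, adjusted p = 6.7e-04). RRP12 (0.41 ± 0.10, adjusted p = 0.0091) and RRP9 (0.40 ± 0.10, adjusted p = 0.0095) take part in ribosomal RNA processing. Of 25 FOXO targets BCL6, a transcriptional repressor, was called higher and KLF15 lower (-0.59 ± 0.17, adjusted p = 0.029), with 6 higher after adjustment for GC content. BCL6 was at 28.7, 29.7 and 33.6 CPM in starved WT and 45.3, 51.2 and 51.7 CPM in starved RB1CC1KO cells (0.93 ± 0.15, adjusted p = 8.4e-05). The higher count was 2 without WT full medium replicate 3, WT EBSS replicate 3, RB1CC1KO full medium replicate 2 or RB1CC1KO EBSS replicate 2. The KLF15 call was lost under 9 of 19 alternatives.

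None of 19 NRF2 targets, 13 mitochondrially encoded mRNAs (median -0.24) or 40 nuclear-encoded respiratory chain subunits (median -0.05) was called by edgeR or by DESeq2, and 1, 0 and 2 of them had an unadjusted p under 0.05. After adjustment for GC content 1 NRF2 target was called higher. Without RB1CC1KO EBSS replicate 2, 1 mitochondrial mRNA was called lower, and without RB1CC1KO full medium replicate 1, 1 respiratory chain gene was.

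The remaining lists held single calls. Of 18 interferon-stimulated genes IFIT5 was called lower (-1.35) and ISG20 higher, of 18 heat shock chaperones BAG3 was called higher (0.44), of 16 NF-kB targets NFKBIE was called lower (-0.77) and of 15 BCL2 family genes BCL2 was called lower (-0.43). The BCL2 gene was not called by DESeq2. The BAG3 call was lost without WT EBSS replicate 2, and the NFKBIE call without WT full medium replicate 2 or 3, WT EBSS replicate 1, RB1CC1KO full medium replicate 3 or RB1CC1KO EBSS replicate 2. The BCL2 call was lost without 8 of the 12 libraries in turn.

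Among the 12 measured haematopoietic markers HCLS1 and GATA2 (0.39 ± 0.11, adjusted p = 0.026) were called higher and TAL1 lower. TAL1, a transcription factor of blood stem cells, was at 36.1, 41.1 and 34.6 CPM in fed WT, 19, 15.7 and 17.5 CPM in starved WT, 50.4, 54.7 and 49.3 CPM in fed RB1CC1KO cells and 14.9, 14.4 and 14.6 CPM in starved RB1CC1KO cells (-0.71 ± 0.13, adjusted p = 3.6e-04). Its fed RB1CC1KO libraries were above the fed WT ones and its starved RB1CC1KO libraries below the starved WT ones. The GATA2 call was lost without WT full medium replicate 1 or 2, WT EBSS replicate 1 or 2, or RB1CC1KO EBSS replicate 3. GATA2 started lower in the RB1CC1KO-labelled line (-0.27 ± 0.08, adjusted p = 0.018). Of 13 fibroblast and mesenchymal markers FN1 was called higher (0.45) and TAGLN lower. None of 6 epithelial markers was called by edgeR or by DESeq2, and 1 had an unadjusted p under 0.05.

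The same response was also set against that of the ATG7KO-labelled line, whose gene acts later in autophagosome formation. That response difference was called for 498 genes (3.28%), 149 higher (0.982%) and 349 lower (2.3%), and it shares the RB1CC1KO libraries with the comparison to WT. It also rests on ATG7KO EBSS replicate 3, the shallowest of the 18 libraries with 4892072 reads in genes. FOS had 1.91 ± 0.32 (adjusted p = 8.1e-04) and CDKN1A had 1.12 ± 0.11 (adjusted p = 8.3e-08) against that line. PARS2 had -1.62 ± 0.31 (adjusted p = 0.0012), which was lost without ATG7KO EBSS replicate 2, while FOSB did not pass (1.37 ± 0.58, adjusted p = 0.30). The 498 became 295 without ATG7KO EBSS replicate 2 and 309 without RB1CC1KO EBSS replicate 1.

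**Figure D4:**
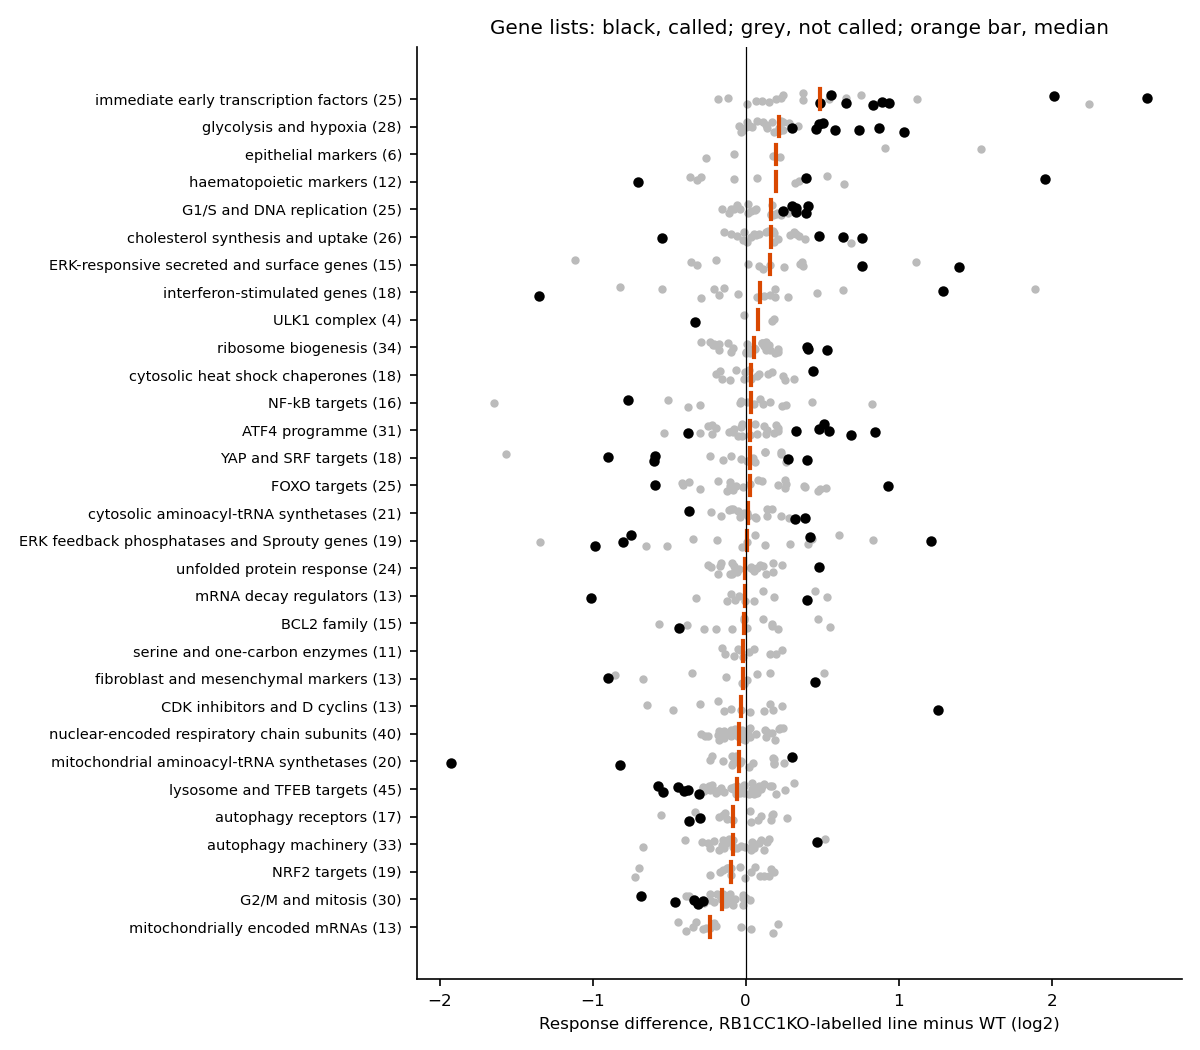
Response difference (x axis, log2) of every measured member of 31 gene lists, with called genes in black, other genes in grey and an orange bar at each list's median. The immediate early list has the highest median (0.49), followed by glycolysis and hypoxia (0.22), and the mitochondrially encoded mRNAs have the lowest (-0.24).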

How the data were processed

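Poly(A) RNA from 18 HAP1 cultures was sequenced as 75-base single-end reads with a directional kit, per the labels' protocols. The authors deposited whole-number read counts per Ensembl gene identifier for each library. Per the submitters' processing notes, the tools were HTSeq 0.6.1p1, STAR 2.4.2a, Picard, DESeq2 and edgeR, on hg19. For the strand setting and annotation release, the sources used here give nothing. Lines for reads outside genes were left out of library sizes (no feature 9.39 to 15.1%, ambiguous 2.08 to 2.39% in the 12 libraries).

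The counts were tested with edgeR 4.0.16 in R 4.3.3: TMM scaling, its default filter on low counts, 6 group means over all 18 libraries (12 residual degrees of freedom, biological coefficient of variation 6.72%), the robust quasi-likelihood F test and Benjamini-Hochberg adjustment over 15179 genes, with 0.05 as the threshold. Errors are standard errors of log2 differences. CPM were scaled by TMM. Names, exon numbers and GC content came from a gene name table and GENCODE 29, which matched 52526 of 63677 identifiers. The test of the response difference was also tried on data simulated from the fitted means and spread, and the outcome is not reported here.

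Named genes were 4 markers, the ULK1 complex, the 12 protein-coding genes with the largest difference in each direction among those called (mean log2 CPM of at least 1, at least 10 reads in each of the 4 groups), and up to 4 members with the smallest p of each list. The members and lists were chosen with earlier results of these data known. Of 701 list entries 700 were matched; some of their results are not reported here. The alternatives were upper-quartile scaling, DESeq2 1.42.0, no filter, at least 1 CPM in 6 libraries, only the compared groups, a replicate block, and leaving out each library. A GC adjustment of the offsets was chosen after seeing the data. The depth of 11994110 to 26005942 reads in genes in the 12 libraries, and of 4892072 in ATG7KO EBSS replicate 3, limits the precision of genes with few reads. No 2 libraries of a group agreed within sampling noise.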

Additional observations from a re-analysis of the deposited data

Results flagged for a closer look

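The response of the RB1CC1KO-labelled line differed from that of WT for 1238 genes and from that of the ATG7KO-labelled line for 498 genes (149 higher and 349 lower), by edgeR's quasi-likelihood test of the difference itself. These comparisons share the 6 RB1CC1KO libraries, so they are not independent. The 349 lower calls became 155 and 152 without ATG7KO EBSS replicates 1 and 2, 181 and 182 without RB1CC1KO full medium replicates 2 and 3, and 148 without RB1CC1KO EBSS replicate 1.

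Of all 77 named genes called against WT, 37 were also called against the ATG7KO-labelled line. NAB2 (0.64), F3 (1.33) and TAL1 (0.98) were called with the opposite sign to the comparison with WT. Of the 25 called genes that were named as markers, as ULK1 complex members or for the size of their difference, 15 were called against the ATG7KO-labelled line. Upwards these were FOS (1.91), HCLS1 (1.78), ARC (1.44), PYGM (1.27), CDKN1A (1.12), CSPG5 (1.11) and TFRC (0.75). Downwards they were WNK4 (-1.93), PARS2 (-1.62), BLOC1S3 (-1.56), MED7 (-1.39), OLIG2 (-1.39), MYCL (-1.25), HOXC8 (-1.23) and BLOC1S4 (-1.0). FOSB (1.37) did not pass against that line. WNK4 was -2.68 without ATG7KO full medium replicate 3. The calls of PARS2 and HOXC8 were lost without ATG7KO EBSS replicates 2 and 1 respectively, that of PYGM without ATG7KO full medium replicate 3 or RB1CC1KO full medium replicate 3, that of MED7 under 7 of 19 alternatives and that of BLOC1S4 under 13.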

How the results depend on the processing

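Of the 77 named genes called, 53 were called under each of the 19 alternatives and 24 were lost under at least 1. With single libraries left out, the response differences called ranged from 788 to 1588 in total, 226 to 687 higher, 497 to 901 lower and 136 to 206 of at least 2-fold. The full-medium calls ranged from 1745 to 2530, 674 to 1235 higher and 1005 to 1295 lower, and those against the ATG7KO line from 295 to 468, 121 to 198 higher and 148 to 302 lower. Higher calls were 626 with a replicate block within each line, 709 with GC-adjusted offsets and 713 with these and a replicate block, and lower calls against the ATG7KO line were 220 with only the compared groups. The cause was not tested.

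The replicate numbers are not stated to pair cultures. Deviations of same-numbered libraries correlated at -0.05 to 0.22 over 12 pairs and those of different-numbered ones at -0.17 to 0.11. A replicate block called 1581 genes and a replicate block within each line 1582.

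The values that changed sign were near 0 and not called. ATG13 had a response difference of 0.00519 with DESeq2, 0.0212 with the stricter filter and 0.0182 with the compared groups. Its full-medium difference was -0.0135 with upper-quartile scaling, -0.0126 with the stricter filter and -0.0121 with the compared groups. With single libraries left out, the response difference of ATG13 was -0.0509 to 0.0473. Full-medium values were then -0.0327 to 0.0329 for ATG13, -0.0354 to 0.0901 for PARS2, -0.125 to 0.0575 for BLOC1S4 and -0.0477 to 0.136 for ATG101. Differences from the ATG7KO line were -0.138 to 0.0457 for ATG101, -0.0364 to 0.117 for ULK1 and -0.151 to 0.655 for LRRN4CL.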
